A study of Mus musculus with 19 samples.

Results

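Livers of Mat1a knockout (KO) mice given S-adenosylmethionine (SAMe) for 8 weeks were set against livers of Mat1a KO mice given placebo for 8 weeks. The arrays were chosen by the genotype and treatment in their labels, which gave 5 KO SAMe and 6 KO placebo livers, or 11 of the 19 arrays of the study. All mice were 10 months old, and the other 8 arrays held livers of wild type (WT) mice given placebo. Both KO groups carry the Mat1a deletion, so they differ in treatment by their labels, and SAMe-treated WT livers are not analysed here. The labels used here name neither the strain and sex of the mice, nor the dose and route of SAMe, nor the way the allele was made. Each array read the biotin-labelled RNA of 1 liver on an Illumina BeadChip, on which gene-specific probes sit on beads and a brighter bead means more RNA of its gene.

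SAMe is the methyl donor of most methylation reactions in the cell, including those of DNA, histones and phosphatidylethanolamine, and is also a source of polyamines and, through homocysteine, of glutathione. Mat1a encodes the subunit of methionine adenosyltransferase that adult hepatocytes use to make SAMe from methionine and ATP. Mice without Mat1a are known for low hepatic SAMe, fatty liver, oxidative stress and, late in life, liver tumours.

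All values are log2 intensities after background correction and quantile normalization, and differences are KO SAMe minus KO placebo on that log2 scale. Of 45281 probes, 25.5% to 31.8% were detected per array over the study, and 10831 features (8529 named genes and 2302 probes without a name) were tested. A gene was called where limma gave it a Benjamini-Hochberg adjusted p under 0.05 over all features. Mat1a itself read 9.64 ± 0.12 in KO SAMe and 9.52 ± 0.31 in KO placebo livers (SD, n = 5 and 6), against 12.12 ± 0.14 in WT livers (SD, n = 8), and no KO array reached a WT array. Between the KO groups Mat1a differed by 0.12 (SE 0.12, adjusted p = 0.566), and the remaining KO signal is that of 1 probe, whose place relative to the deleted part is not given. Hepatocyte markers were high in all arrays, with summed intensities of 10 measured markers of 42900 to 46900 in KO SAMe, 42500 to 51500 in KO placebo and 40000 to 46300 in WT livers.

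The arrays fell into sets by their raw background. The median raw signal was 93.6 to 100 in 4 of 6 KO placebo arrays and 1 WT array, and 75.1 to 85.8 in all 5 KO SAMe arrays, the other 2 KO placebo arrays and 7 WT arrays. Those 5 bright arrays were also the first 5 columns of the authors' raw table. Every finding was therefore fitted again with a block for the background set, and once more within the 14 low-background arrays. There 5 KO SAMe livers meet 2 KO placebo livers. In the raw table all 6 KO placebo arrays lay in columns 1 to 9 and all 5 KO SAMe arrays in columns 10 to 19. None of these fits has a term for column order, so none can tell it from treatment.

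In the fit without the block 2000 features were called (18.5%), of which 1167 were higher (10.8%) and 833 lower (7.69%) in KO SAMe livers. With the block the calls numbered 1003 (9.26%), of which 521 were higher (4.81%) and 482 lower (4.45%). Within the low-background arrays 76 were called (0.702%), of which 35 were higher (0.323%) and 41 lower (0.379%), and 1757 had an unadjusted p under 0.05. In the low-background fit many features share the adjusted p of 0.0497, just under the threshold. Both fits over all arrays called 788 features in the same direction, 432 higher and 356 lower. The low-background fit uses the same 5 KO SAMe arrays and 2 of the same KO placebo arrays, so its signs are no independent check of those calls. The other 1212 calls were lost with the block. The block rests partly on the 1 high-background WT array: over the 11 KO arrays alone 1838 features were called without it and 37 with it. The 4 high-background KO placebo livers also share an ID letter that no other array has, and with the ID letter as a term 1 feature was called and 830 had an unadjusted p under 0.05. That fit kept 0 of the 2000 calls, and 78 of them had the opposite sign in it. Without KO placebo 1 or KO placebo 2, both high-background arrays, the lower calls numbered 552. For most calls the treatment and the array set therefore cannot be told apart. The KO SAMe and KO placebo arrays did not overlap at all for 971 features (8.97%). Most changes were small: the median size among called features was 0.53, and 107 were called at 2-fold or more, of which 23 were higher and 84 lower.

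**Figure D1:**
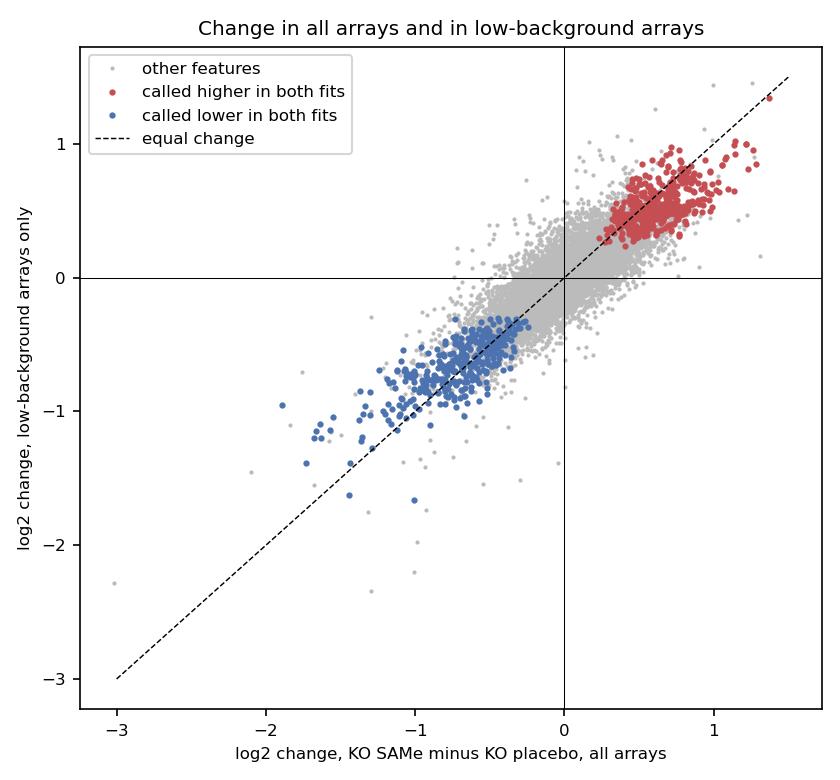
Log2 change of each of 10831 features (KO SAMe minus KO placebo) in the fit over all arrays on the x axis and within the low-background arrays on the y axis. The 432 features called higher and the 356 called lower in both fits over all arrays lie in the upper right and lower left, and the axes share the 5 KO SAMe and 2 of the KO placebo arrays.

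Among named genes called with and without the block, the rises were led by Cela2a, Dclk3, Alkbh7 and Albfm1, with changes of 1.22 to 1.37. Cela2a, an elastase known from the exocrine pancreas, read 5.64, 5.93, 6.14, 5.56 and 6.44 in the 5 KO SAMe livers and 4.44, 4.31, 4.45, 5.04, 4.61 and 4.59 in the 6 KO placebo livers. It rose by 1.37 (SE 0.21, adjusted p = 4.11e-04) without the block, changed by 1.4 with it and by 1.35 within the low-background arrays. The groups did not overlap, and Cela2a was detected on 5 of 6 KO placebo arrays. Dclk3, a kinase of the doublecortin-like family, stood at 7.36, 7.85, 7.36, 6.96 and 7.3 in KO SAMe and at 6.19, 5.58, 6.22, 5.8, 6.77 and 6.05 in KO placebo livers. It rose by 1.26 (SE 0.2, adjusted p = 4.30e-04), and by 0.99 with the block. The highest KO placebo liver, one of the low-background arrays, stayed below the lowest KO SAMe liver. Alkbh7, a mitochondrial protein of the AlkB dioxygenase family, read 8.35, 8.94, 8.86, 8.88 and 8.22 in KO SAMe and 6.81, 7.01, 7.42, 7.61, 7.99 and 7.68 in KO placebo livers. It rose by 1.23 (SE 0.19, adjusted p = 4.11e-04), and by 1.01 with the block. Its 2 low-background KO placebo livers were the brightest of their group. Albfm1, a gene of the albumin family, read 6.62, 7.22, 7.09, 7.54 and 6.87 in KO SAMe and 5.86, 5.42, 5.3, 6.39, 5.95 and 6.18 in KO placebo livers, rose by 1.22 (SE 0.2, adjusted p = 4.44e-04) and changed by 0.93 with the block.

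Cldn5, a claudin that seals tight junctions of endothelial cells, read 6.13, 6.76, 6.75, 7.03 and 6.24 in KO SAMe and 5.08, 4.94, 5.27, 5.77, 6.03 and 5.13 in KO placebo livers. It rose by 1.21 (SE 0.19, adjusted p = 4.36e-04), and by 1.21 with the block. Clec2d, a C-type lectin that serves as ligand of an inhibitory receptor of NK cells, read 9.43, 8.61, 9.09, 9.11 and 8.47 in KO SAMe and 7.12, 7.41, 8.29, 7.94, 7.81 and 8.23 in KO placebo livers. It rose by 1.14 (SE 0.22, adjusted p = 0.0015), and by 1.07 with the block, and the groups of both genes stood apart. Arsg, a lysosomal sulfatase, read 7.37, 8.03, 7.48, 7.85 and 7.91 in KO SAMe and 6.64, 6.28, 6.35, 6.8, 6.43 and 7.03 in KO placebo livers, rose by 1.14 (SE 0.19, adjusted p = 5.03e-04) and changed by 0.96 with the block. Dus4l, which modifies uridines of transfer RNA, read 6.66, 6.66, 6.54, 6.6 and 6.73 in KO SAMe and 5.48, 5.25, 5.08, 5.23, 5.79 and 6.19 in KO placebo livers. It rose by 1.13 (SE 0.16, adjusted p = 3.11e-04), and by 0.71 with the block. Its 2 low-background KO placebo livers were the brightest of their group. The 5 KO SAMe livers lay within a narrow band and above every KO placebo liver. For the rises from Cela2a to Dus4l adjusted p was 0.00689 to 0.0256 with the block. Within the low-background arrays Cela2a and Albfm1 were called. Dclk3 (0.95), Alkbh7 (0.81), Cldn5 (1.0), Clec2d (0.92), Arsg (1.0) and Dus4l (0.65) were not, at adjusted p of 0.0623 to 0.116.

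The next rises among named genes called in both fits were Magix (1.09), Avpi1 (1.09), the mitochondrial micropeptide gene Mtln (1.07), the lysosomal sialic acid exporter Slc17a5 (1.06), Znhit3 (1.05), Olfml1 (1.03) and Nit2 (1.01). Their adjusted p-values were between 3.51e-04 and 0.00108 without the block and between 0.00892 and 0.0246 with it. Avpi1 alone of them was called within the low-background arrays. Nit2 is the omega-amidase that removes the keto acid left when glutamine is transaminated. A second Nit2 probe changed by only 0.18, so the rise rests on 1 of its 2 probes. Mtln was tight in treated livers, with 8.33 ± 0.06 in KO SAMe and 7.25 ± 0.27 in KO placebo livers (SD, n = 5 and 6), and averaged 7.68 in WT livers.

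Over all features the largest called fall (-3.02) was that of a probe without a gene name and was not called with the block. Among named genes called in both fits the falls were led by Cebpb, Creld2, Hspb1 and Slc25a25. Cebpb, a transcription factor of acute phase and gluconeogenic genes, read 9.42, 9.21, 8.96, 8.11 and 10.08 in KO SAMe and 10.84, 10.76, 11.49, 11.15, 10.56 and 10.52 in KO placebo livers. It fell by 1.73 (SE 0.27, adjusted p = 4.30e-04), a 3.31-fold difference, and changed by -1.76 with the block. Treated livers spread widely, yet none reached a KO placebo liver, and the WT mean was 9.58. Creld2, a protein of the endoplasmic reticulum that is induced when unfolded proteins build up, read 7.13, 6.76, 7.84, 6.84 and 6.21 in KO SAMe and 9.37, 9.26, 8.36, 8.53, 8.11 and 8.1 in KO placebo livers. It fell by 1.66 (SE 0.26, adjusted p = 4.36e-04), and its change was -1.51 with the block. The groups did not overlap, although the 2 low-background KO placebo livers were the dimmest of theirs. Hspb1, a small heat shock protein that binds unfolding proteins, read 5.08, 5.82, 4.66, 4.9 and 4.76 in KO SAMe and 7.12, 7.46, 7.27, 5.97, 6.13 and 6.13 in KO placebo livers. It fell by 1.64 (SE 0.24, adjusted p = 3.59e-04), and its change was -1.27 with the block and -1.09 within the low-background arrays. Slc25a25, a calcium-regulated carrier of ATP across the inner mitochondrial membrane, read 5.77, 7.25, 7.58, 6.66 and 7.09 in KO SAMe and 7.93, 8.29, 9.44, 9.2, 8.09 and 8.04 in KO placebo livers. It fell by 1.63 (SE 0.31, adjusted p = 0.00132), its change with the block was -1.09, and it averaged 6.87 in KO SAMe, 8.5 in KO placebo and 8.61 in WT livers.

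Chaperone genes fill the next 3 places among named genes called in both fits. Hsph1, which exchanges the nucleotide of Hspa chaperones, read 7.21, 8.05, 8.49, 6.89 and 7.01 in KO SAMe and 9.67, 9.56, 9.0, 9.11, 8.31 and 8.82 in KO placebo livers. It fell by 1.55 (SE 0.26, adjusted p = 5.03e-04), its change with the block was -1.08, and the brightest treated liver overlapped the dimmest KO placebo liver. Bag3, a partner of Hspa and small heat shock proteins in the removal of damaged proteins, read 7.91, 8.43, 9.48, 8.89 and 8.54 in KO SAMe and 10.5, 10.74, 9.47, 9.72, 10.12 and 9.94 in KO placebo livers. It fell by 1.43 (SE 0.22, adjusted p = 4.30e-04), its change with the block was -1.37 and within the low-background arrays -1.38, and the groups touched at KO SAMe 3. Hspd1, the mitochondrial chaperonin, read 8.28, 7.23, 7.57, 7.34 and 7.85 in KO SAMe and 9.43, 9.46, 9.01, 8.83, 8.82 and 8.62 in KO placebo livers. It fell by 1.37 (SE 0.26, adjusted p = 0.00127). Its change was -1.05 with the block and -1.07 within the low-background arrays (adjusted p = 0.153). In WT livers Hspd1 read 7.77, 8.15 and 7.97 in columns 3, 6 and 7 of the raw table, and 6.62 to 7.15 in columns 11 to 18. The part of column order in its fall was not tested. Onecut2, a liver transcription factor of the cut homeobox family, read 6.04, 7.0, 6.52, 6.41 and 6.68 in KO SAMe and 8.48, 8.34, 7.73, 7.32, 7.79 and 7.7 in KO placebo livers. It fell by 1.36 (SE 0.3, adjusted p = 0.00353), and its change with the block was -1.71. The groups of Hspd1 and of Onecut2 did not overlap. For the falls from Cebpb to Onecut2 adjusted p was 0.0075 to 0.0487 with the block. Within the low-background arrays Hspb1 and Bag3 were called. Cebpb (-1.38), Creld2 (-1.15), Slc25a25 (-1.2), Hsph1 (-1.04), Onecut2 (-1.22) and Hspd1 were not, at adjusted p of 0.0571 to 0.153.

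**Figure D2:**
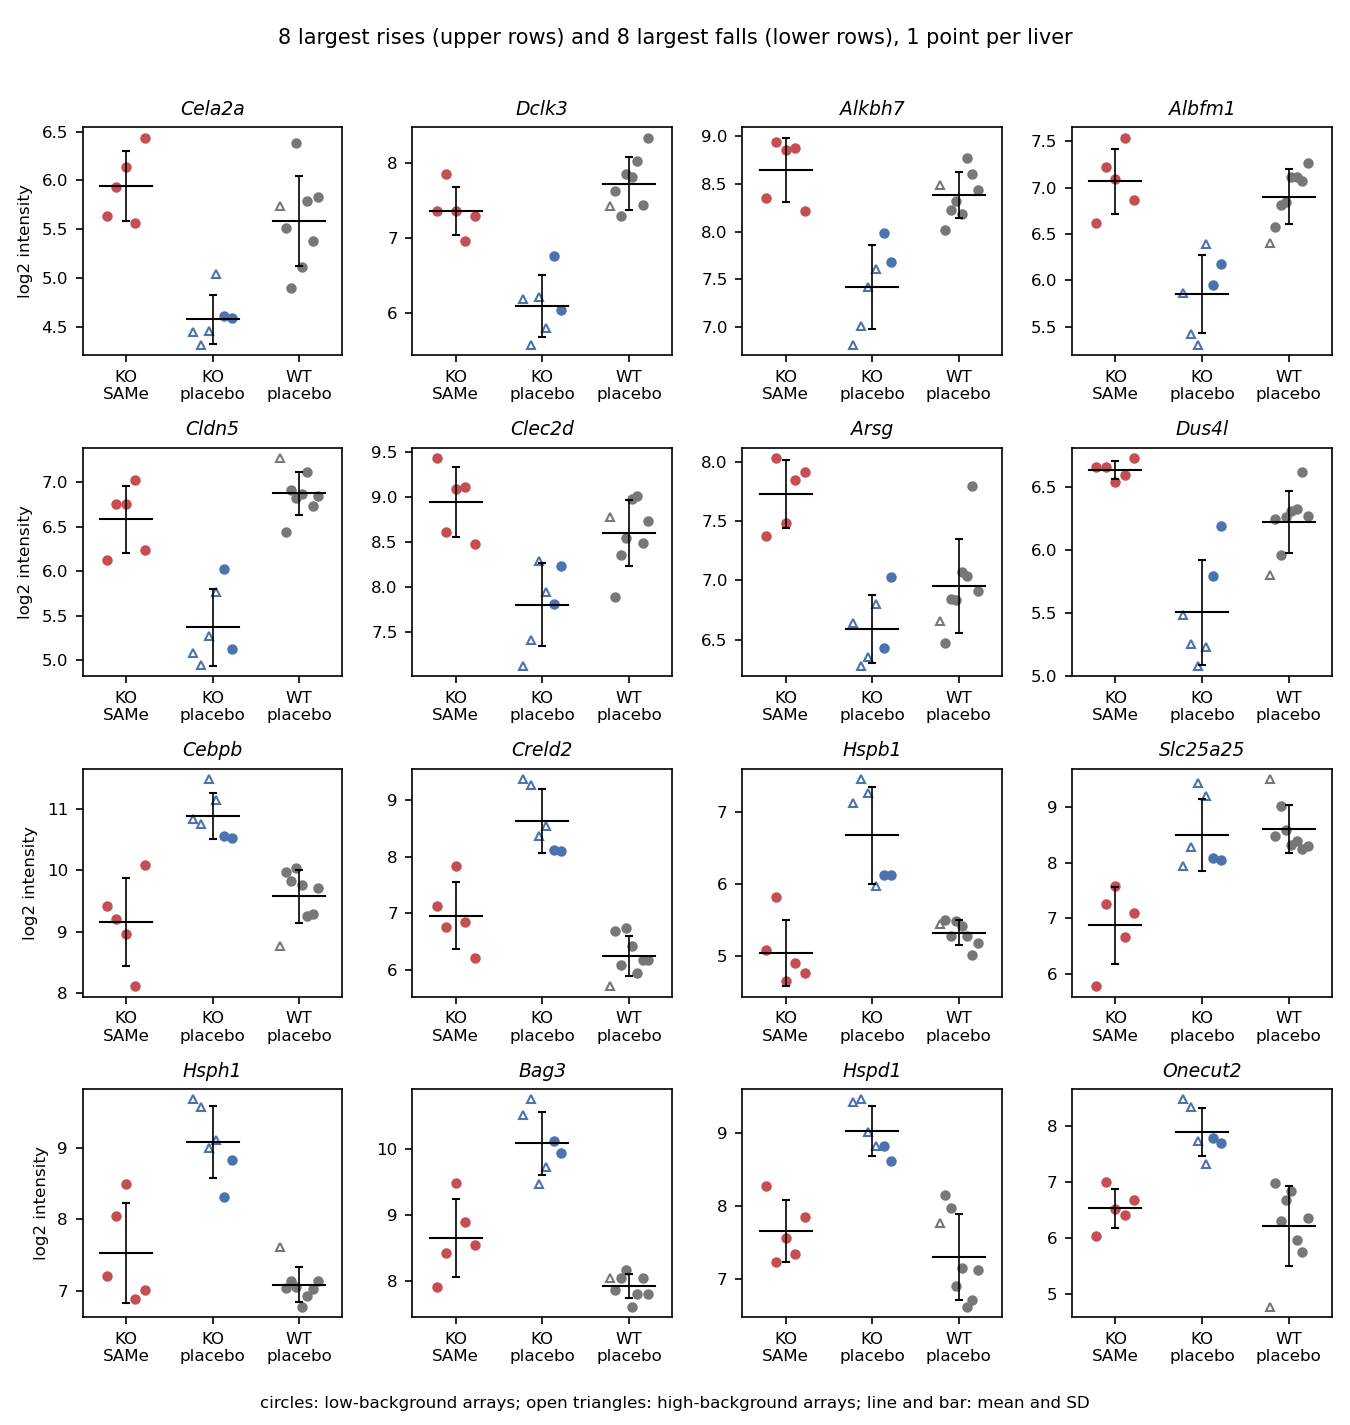
Log2 intensity in each liver for the 8 largest rises (2 upper rows) and the 8 largest falls (2 lower rows) among genes called with and without the background block, with KO SAMe (n = 5), KO placebo (n = 6) and WT placebo (n = 8) from left to right, the line and bar for the mean and SD, and open triangles for high-background arrays. KO SAMe and KO placebo livers do not overlap for 14 of the 16 genes, the exceptions being Hsph1 and Bag3. The genes were chosen by the size of this same difference, which favours groups that stand apart. Over all features 8.97% did not overlap.

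The remaining falls among the 15 largest of named genes called in both fits were Igfbp7 (-1.36), Cd74 (-1.3), the kinase gene Hipk2 (-1.29), the adaptor gene Ywhaz (-1.22), Sec14l4 (-1.21), COX2 (-1.19) and Col4a2 (-1.18). Their adjusted p-values were between 3.11e-04 and 0.00958 without the block and between 0.00689 and 0.0452 with it. Of these genes only Hipk2 and Col4a2 were called within the low-background arrays. COX2 is here the respiratory chain gene of the mitochondrial genome, and read 7.69 ± 0.34 in KO SAMe and 8.88 ± 0.35 in KO placebo livers (SD, n = 5 and 6). Hipk2 averaged 6.71 in KO SAMe, 8.01 in KO placebo and 6.71 in WT livers, but its other probes changed by 0.13 and -0.43. The other Cd74 probes changed by -0.67 and -1.51, and a second probe of Creld2, Hspd1 and Onecut2 fell by 1.65, 1.56 and 1.60.

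Heat shock proteins of the cytosol and mitochondria help other proteins fold, and are induced when proteins are damaged. Of 30 measured chaperone genes 9 fell and 1 rose without the block, and 6 fell and 0 rose with it. Their median change was -0.29 without and -0.12 with the block, beside -0.002 and 0.013 over all features. Over all features 10.8% were called higher and 7.69% lower without the block, and 4.81% and 4.45% with it. The counts of each list below stand beside these same shares. Besides Hspb1, Hsph1, Bag3 and Hspd1, the co-chaperone gene Chordc1 fell by 0.95 (SE 0.15, adjusted p = 4.14e-04), with 6.94 ± 0.27 in KO SAMe and 7.89 ± 0.32 in KO placebo livers (SD, n = 5 and 6) and no overlap. Hspa1a, the stress-induced cytosolic chaperone, fell by 0.57 (SE 0.16, adjusted p = 0.0169) and was detected on 2 of 5 KO SAMe and 5 of 6 KO placebo arrays. The falls of Tcp1 (-0.81) and Cct8 (-0.64), subunits of the cytosolic chaperonin, and of Hspb8 (-0.61) lost their call with the block, at adjusted p = 0.193, 0.239 and 0.551. Grpel1, which helps the mitochondrial Hspa chaperone release its nucleotide, went the other way (0.49, adjusted p = 0.0122), also not called with the block. Within the low-background arrays Hspb1 and Bag3 were called and the median of the list was -0.07. Leaving out 1 array at a time gave 6 to 11 falls.

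Promoters of 5 chaperone genes called in both fits are shown because each holds a heat shock element. The heat shock element is the binding site of heat shock transcription factors, and was searched as GAANNTTC, which reads the same on both strands. It occurred in 7.86% of 32851 mouse promoter windows, each from 250 bases before to 50 after a gene's start (RefSeq, GRCm38.p6). Of the 9 chaperone genes that fell without the block, 7 had it, namely Bag3, Chordc1, Hspa1a, Hspb1, Hspb8, Hspd1 and Hsph1. Of the 15 uncalled members with a window, 3 had it, namely Dnaja1 (-0.19), Fkbp4 (-0.3) and Hspe1 (-0.47), and Grpel1 had none. A match shows the letters only, not a bound factor, and where a gene had several starts any of its windows counted. Each sequence below runs 5′ to 3′ along its gene, with matches in capitals. The windows lie at chr5:135887669-135887968 on the plus strand for Hspb1, at chr5:149636266-149636565 on the minus strand for Hsph1, at chr7:128523333-128523632 on the plus strand for Bag3, at chr1:55087883-55088182 on the minus strand for Hspd1, and at chr9:18292017-18292316 on the plus strand for Chordc1.
Hspb1: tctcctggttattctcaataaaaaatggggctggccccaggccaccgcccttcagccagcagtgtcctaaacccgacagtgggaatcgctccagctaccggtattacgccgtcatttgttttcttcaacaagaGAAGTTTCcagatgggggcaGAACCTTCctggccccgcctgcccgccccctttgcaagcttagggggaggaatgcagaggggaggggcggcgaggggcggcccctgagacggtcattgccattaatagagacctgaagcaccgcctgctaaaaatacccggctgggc
Hsph1: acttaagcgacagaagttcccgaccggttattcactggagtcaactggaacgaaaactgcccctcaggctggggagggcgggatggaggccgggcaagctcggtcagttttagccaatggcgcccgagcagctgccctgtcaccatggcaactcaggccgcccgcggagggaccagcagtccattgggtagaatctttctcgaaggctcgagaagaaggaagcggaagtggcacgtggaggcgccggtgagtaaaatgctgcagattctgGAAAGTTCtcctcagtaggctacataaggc
Bag3: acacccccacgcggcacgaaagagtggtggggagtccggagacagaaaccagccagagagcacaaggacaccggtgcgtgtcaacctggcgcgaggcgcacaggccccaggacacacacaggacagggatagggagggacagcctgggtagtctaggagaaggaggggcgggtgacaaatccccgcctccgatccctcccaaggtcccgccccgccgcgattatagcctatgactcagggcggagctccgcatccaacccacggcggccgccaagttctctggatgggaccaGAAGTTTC
Hspd1: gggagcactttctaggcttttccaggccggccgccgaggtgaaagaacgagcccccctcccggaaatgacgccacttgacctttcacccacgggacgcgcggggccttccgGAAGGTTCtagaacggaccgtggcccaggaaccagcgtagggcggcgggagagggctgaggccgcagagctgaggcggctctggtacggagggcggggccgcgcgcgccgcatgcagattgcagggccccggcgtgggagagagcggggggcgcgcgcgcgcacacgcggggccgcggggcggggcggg
Chordc1: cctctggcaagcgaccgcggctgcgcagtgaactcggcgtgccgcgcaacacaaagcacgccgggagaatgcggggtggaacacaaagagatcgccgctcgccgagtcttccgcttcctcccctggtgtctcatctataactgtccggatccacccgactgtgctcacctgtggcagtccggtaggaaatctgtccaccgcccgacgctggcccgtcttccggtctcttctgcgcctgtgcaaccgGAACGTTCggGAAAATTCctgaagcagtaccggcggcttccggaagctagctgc
Hspb1 and Chordc1 each held 2 matches, with first bases at -117 and -97 from the start for Hspb1 and at -4 and 6 for Chordc1. The single match began at 20 for Hsph1, at 42 for Bag3 and at -139 for Hspd1.

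Chaperones of the endoplasmic reticulum and genes of the unfolded protein response, which senses misfolded proteins in that compartment, were called mainly in the fit without the block. Of 27 measured members 8 fell and 3 rose without the block, and with it Creld2 alone remained called. The rises numbered 1 to 3 with 1 array at a time left out, moving over 1.5 times without KO SAMe 3, KO SAMe 4, KO SAMe 5 or KO placebo 3. Herpud1, a part of the machinery that degrades such proteins, fell by 0.54 (SE 0.12, adjusted p = 0.00388) and had adjusted p = 0.0776 with the block. Hsp90b1, the Hsp90 of the endoplasmic reticulum, averaged 9.29 ± 0.44 in KO SAMe and 10.37 ± 0.38 in KO placebo livers (SD, n = 5 and 6), fell by 1.08 (SE 0.25, adjusted p = 0.00515) and had adjusted p = 0.15 with the block. Its KO placebo mean was 10.57 in the 4 high-background and 9.97 in the 2 low-background arrays. Dnajb9 (-1.2) had a larger gap of the same kind, with KO placebo means of 7.2 in the high-background and 6.52 in the low-background arrays. In WT livers Hsp90b1 read 9.83, 9.91 and 9.46 in columns 3, 6 and 7 of the raw table, and 8.49 to 8.9 in columns 11 to 18. For Creld2, Herpud1 and Sel1l the WT values of those columns overlapped. Background set, column order and part of the treatment effect cannot be told apart for Hsp90b1 and Dnajb9. Sel1l (-0.62), Ssr1 (-0.62), Pdia4 (-0.56) and the sensor Ern1 (-0.47) fell too, while Sec61b (0.6), P4hb (0.27) and Derl2 (0.39) rose, all without a call under the block. A second Sel1l probe changed by -0.15 and a second Herpud1 probe by -1.14. The median of the list was -0.22 without the block, -0.08 with it and 0.01 within the low-background arrays.

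The promoters of Creld2 and Hsp90b1 carry the ER stress element, the site through which the unfolded protein response induces its targets. It was searched on both strands as CCAAT and CCACG held 9 bases apart, and occurred in 0.119% of the same promoter windows. It contains the shorter NF-Y box CCAAT, which occurred in 37.4% of them. Of the 8 fallen members 2 had the element, as did 6 of 14 uncalled members with a window, among them Calr (-0.32), Hspa5 (0.02) and Dnajc3 (0.15). Hsp90b1 held 2 matches and Creld2 held 1. The windows lie at chr15:88819396-88819695 on the plus strand for Creld2 and at chr10:86705395-86705694 on the minus strand for Hsp90b1, with the element in capitals.
Creld2: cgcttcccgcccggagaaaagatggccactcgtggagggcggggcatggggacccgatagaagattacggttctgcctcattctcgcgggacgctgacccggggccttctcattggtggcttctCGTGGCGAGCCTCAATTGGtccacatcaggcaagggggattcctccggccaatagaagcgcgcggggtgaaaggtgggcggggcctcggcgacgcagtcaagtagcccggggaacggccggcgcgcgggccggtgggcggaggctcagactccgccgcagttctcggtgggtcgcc
Hsp90b1: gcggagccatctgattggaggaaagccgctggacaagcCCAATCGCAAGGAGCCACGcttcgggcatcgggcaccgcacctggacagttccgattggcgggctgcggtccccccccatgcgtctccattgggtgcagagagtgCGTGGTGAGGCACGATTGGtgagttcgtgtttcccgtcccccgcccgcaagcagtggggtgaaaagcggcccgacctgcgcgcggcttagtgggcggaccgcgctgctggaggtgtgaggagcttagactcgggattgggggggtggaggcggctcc

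Several genes of lipid droplets, the organelles that store triglyceride, fell in KO SAMe livers. Of 23 measured genes for droplets and fatty acid uptake 6 fell and 1 rose without the block, and 4 fell with the block. Within the low-background arrays 4 fell, Cidec, Plin4, Bscl2 and Cidea (-1.98). Cidec, which fuses droplets into larger ones, read 4.85, 4.28, 5.25, 4.63 and 5.3 in KO SAMe and 5.71, 6.53, 6.12, 5.55, 5.62 and 6.0 in KO placebo livers, without overlap. It fell by 1.06 (SE 0.17, adjusted p = 4.44e-04), and by a similar 1.0 with the block, and it was detected on 4 of 5 KO SAMe, 6 of 6 KO placebo and 0 of 8 WT arrays. Plin4, a droplet coat protein, read 5.06, 5.17, 5.85, 5.44 and 5.09 in KO SAMe and 6.16, 5.92, 6.51, 5.43, 6.93 and 7.03 in KO placebo livers. It fell by 1.01 (SE 0.23, adjusted p = 0.00467), and its change was -1.37 with the block and -1.66 within the low-background arrays (adjusted p = 0.0116). Its 2 low-background KO placebo livers were the brightest, and the dimmest KO placebo liver, a high-background array, lay within the KO SAMe range. Plin2, the main droplet coat protein of hepatocytes, averaged 6.52 ± 0.42 in KO SAMe and 7.39 ± 0.29 in KO placebo livers (SD, n = 5 and 6), fell by 0.87 (SE 0.2, adjusted p = 0.00556) and changed by -0.88 with the block. Bscl2, which shapes droplets at the endoplasmic reticulum, fell by 0.63 (SE 0.19, adjusted p = 0.0227) and changed by -1.03 with the block. The falls of the fatty acid transporter gene Slc27a2 (-0.46) and of Fitm2 (-0.47) and the rise of Angptl8 (1.17) were called only without the block. Angptl8 averaged 9.1 ± 1.23 in KO SAMe and 7.93 ± 0.62 in KO placebo livers (SD, n = 5 and 6), and the number of rises in the list was 0 to 2 when 1 array at a time was left out, moving without any of 9 arrays, all KO arrays but KO placebo 2 and KO placebo 5.

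Cidec and Plin4 are also markers of fat cells, as is Car3, which fell by 0.85 (SE 0.23, adjusted p = 0.0147). Of 6 measured adipocyte markers 3 fell without the block and 4 with it, where Pparg was added (-0.61), and Lpl had a change of 0.77 (adjusted p = 0.0658). The summed intensity of the 6 was 1140 to 1950 in KO SAMe, 1420 to 2430 in KO placebo and 468 to 1070 in WT livers. The defining markers Adipoq, Lep, Plin1, Fabp4, Retn and Cfd were not measured here, and the part of fat tissue in these falls was not tested. Of the 12 adipocyte markers listed 7 had a named probe on the array and 6 passed the detection filter. In whole liver, fewer cells of a type and less RNA per cell cannot be told apart.

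Several basement membrane and other matrix genes fell. Of 36 measured genes of matrix and stellate cells, the vitamin A storing cells that make scar tissue, 10 fell and 0 rose without the block, and 5 fell with it, with medians of -0.27 and -0.29. Col4a2 and Col4a1 encode the 2 chains of the main collagen of basement membranes and start from a shared, divergent promoter region. Col4a2 read 5.15, 5.66, 6.23, 5.77 and 5.48 in KO SAMe and 7.23, 7.18, 6.91, 6.29, 6.9 and 6.54 in KO placebo livers, with 1 KO SAMe liver just under the lowest KO placebo liver and no overlap. It fell by 1.18 (SE 0.19, adjusted p = 4.52e-04), and its change was -1.23 with the block and -1.06 within the low-background arrays. Col4a1 fell by 0.77 (SE 0.17, adjusted p = 0.00368), with 6.48 ± 0.32 in KO SAMe and 7.25 ± 0.29 in KO placebo livers (SD, n = 5 and 6). Colec11, a collectin made by stellate cells, fell by 0.75 (SE 0.13, adjusted p = 7.16e-04), and its groups stood apart. Tgfbr2, a receptor of transforming growth factor beta, fell by 1.06 (SE 0.23, adjusted p = 0.00318). Both were also called with the block, as was Col15a1 (-0.5). The intermediate filament gene Vim (-0.63), Mmp2 (-0.74), Bgn (-0.96), Nid1 (-0.53) and Fn1 (-0.86) were called lower only without the block. Vim was detected on 2 of 5 KO SAMe and 6 of 6 KO placebo arrays. Of 10 measured stellate cell markers Colec11 alone was called, and their summed intensity was 2130 to 2920 in KO SAMe and 2440 to 3180 in KO placebo livers.

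Some genes of antigen presentation fell as well. Of 27 measured genes of MHC class II and the interferon response 6 fell and 0 rose without the block, and 6 fell with it, where H2-Eb1 (-0.95) took the place of Gbp3, with medians of -0.34 and -0.38. Cd74, the chain that guides MHC class II molecules, read 6.62, 7.48, 7.54, 7.26 and 6.97 in KO SAMe and 9.49, 9.16, 8.09, 7.72, 8.8 and 7.6 in KO placebo livers, without overlap, and fell by 1.3 (SE 0.33, adjusted p = 0.00958). H2-Aa, a class II chain, was detected on 0 of 5 KO SAMe, 6 of 6 KO placebo and 2 of 8 WT arrays, so it was at least 1.23-fold lower in KO SAMe livers (adjusted p = 0.0157). Its measured means were low, 4.32 in KO SAMe and 4.8 in KO placebo livers. H2-Aa passed the detection filter of 5 arrays only through the KO placebo group, where it is higher, so its detection split and p are weak support. The class I genes H2-D1 (-0.56) and H2-K1 (-0.45) and their partner B2m (-0.45) fell by less, and Gbp3 (-0.6) fell only without the block. Another H2-D1 probe changed by -0.12, and probes of these closely related class I genes can bind each other's RNA. The number of falls rested partly on 2 high-background livers, since without KO placebo 1 or KO placebo 2 it moved by more than 1.5 times, with a range of 3 to 9 over all single arrays left out. Of 11 measured Kupffer cell and monocyte markers C1qc alone fell (-0.91, adjusted p = 0.0318). Their summed intensity was 579 to 945 in KO SAMe and 661 to 1400 in KO placebo livers, and the part of immune cells in these falls was not tested.

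**Figure D3:**
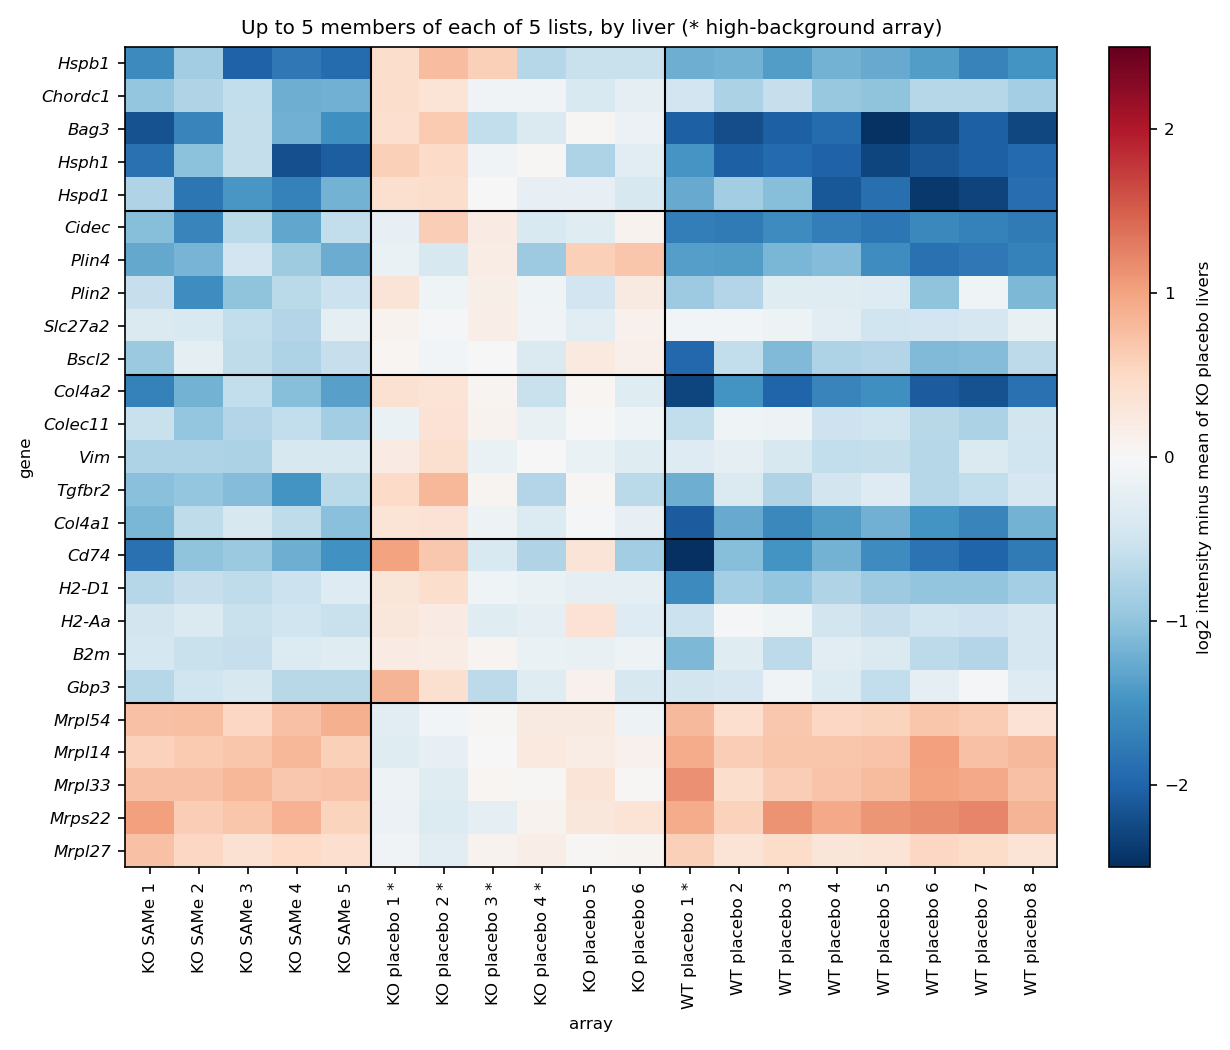
Log2 intensity minus the mean of the KO placebo livers for 5 genes each of chaperones, lipid droplets, matrix, antigen presentation and mitochondrial ribosomal proteins (rows, top to bottom), in each liver (columns, KO SAMe, KO placebo and WT placebo from left to right), with blue for lower, red for higher and an asterisk for high-background arrays. The 5 KO SAMe livers are lower than the KO placebo mean for all genes of the upper 4 groups and higher for the 5 mitochondrial ribosomal protein genes. The genes are those of each list with the largest absolute moderated t in this comparison, so the picture does not stand for the lists. Over all measured members, changes were positive in 9 and negative in 21 chaperone genes, and in 9 and 14 droplet genes. Those numbers were 7 and 29 for matrix, 4 and 23 for antigen presentation, and 55 and 14 for mitochondrial ribosomal proteins.

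Many mitochondrial ribosomal proteins, which translate the few proteins encoded by mitochondrial DNA, rose after quantile normalization, while their median turned to -0.06 under scaling by array medians. Of 69 measured genes 28 rose and 1 fell without the block, and 15 rose and 1 fell with it, with medians of 0.26, 0.22 with the block and 0.12 within the low-background arrays. Mrpl54 read 8.83, 8.84, 8.61, 8.82 and 8.98 in KO SAMe and 7.82, 8.03, 8.13, 8.31, 8.31 and 7.97 in KO placebo livers. It rose by 0.72 (SE 0.11, adjusted p = 3.11e-04), and its change was 0.77 with the block and 0.68 within the low-background arrays (adjusted p = 0.0497). The 5 treated livers lay above every KO placebo liver. Mrpl14 (0.67), Mrpl33 (0.74), Mrps22 (0.75) and Mrpl27 (0.51) rose with adjusted p between 4.30e-04 and 0.00102, each without overlap. Mrpl1 had the largest change of the list (0.79, 0.86 with the block), and Mrpl43 was the 1 member that fell (-0.44), a count of 0 to 2 with 1 array at a time left out that moved without KO SAMe 1, KO SAMe 2, KO SAMe 3 or KO placebo 6. Mrpl33 averaged 9.9 in KO SAMe, 9.16 in KO placebo and 9.97 in WT livers.

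Nuclear genes of oxidative phosphorylation, whose products form the respiratory chain and ATP synthase, were called mostly higher. Of 65 measured genes 23 rose and 1 fell without the block, 9 rose and 2 fell with it, and 0 were called within the low-background arrays. Cox7b, a subunit of cytochrome oxidase, read 5.51, 4.97, 5.67, 5.62 and 5.71 in KO SAMe and 4.25, 4.26, 4.64, 4.56, 4.62 and 4.79 in KO placebo livers, without overlap, and was detected on 4 of 6 KO placebo arrays. It rose by 0.97 (SE 0.14, adjusted p = 3.11e-04), and changed by 0.88 with the block. The complex I genes Ndufb7 (0.66), Ndufb4 (0.73) and Ndufa7 (0.72) and the complex III gene Uqcr10 (0.49) rose, and were also called with the block. Ndufb4 was detected on 3 of 6 KO placebo arrays. Atp5j2 of ATP synthase rose by 0.52 but had adjusted p = 0.0576 with the block. Ndufs3, another complex I gene, fell by 0.53 (SE 0.11, adjusted p = 0.00279), as did the mitochondrially encoded COX2 given above. Without KO SAMe 4, KO placebo 1 or KO placebo 2 the number of rises moved by more than 1.5 times, and it ranged from 15 to 28 over all single arrays left out.

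Cytosolic ribosomal proteins were called in both directions, with more rises after quantile normalization and a median of -0.06 under scaling by array medians. Of 48 measured genes 11 rose and 2 fell without the block, and 13 rose and 4 fell with it. The 2 falls numbered 1 to 3 with 1 array at a time left out, moving over 1.5 times without any of 9 arrays, all KO arrays but KO SAMe 2 and KO SAMe 4. Rps15 read 9.58, 9.96, 9.9, 9.96 and 9.7 in KO SAMe and 8.79, 8.96, 9.08, 9.24, 8.82 and 9.17 in KO placebo livers, without overlap. It rose by 0.81 (SE 0.12, adjusted p = 4.14e-04), and by 0.82 with the block. Rpl35 (0.76), Rpl12 (0.68) and Rpl27 (0.52) also rose, with adjusted p of 5.03e-04, 0.00205 and 0.00153, while Rpl4 fell by 0.68 (SE 0.12, adjusted p = 5.77e-04). Ribosomal protein genes have many near-identical pseudogenes, so a probe can read several of them. Within the low-background arrays Rps15, Rpl12 and Rpl34 were called (0.82, 0.79 and 0.88).

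These shifts of many genes at once depend on how arrays are scaled. With each array scaled by its median over all probes, in place of quantile normalization, the median of all features was -0.21, those of mitochondrial and cytosolic ribosomal proteins were both -0.06 and that of oxidative phosphorylation was 0.08, so the ribosomal medians turned negative but stayed above that of all features. With the median of the kept probes as the scale, all features had 0.16, and the same lists 0.31, 0.31 and 0.45.

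**Figure D4:**
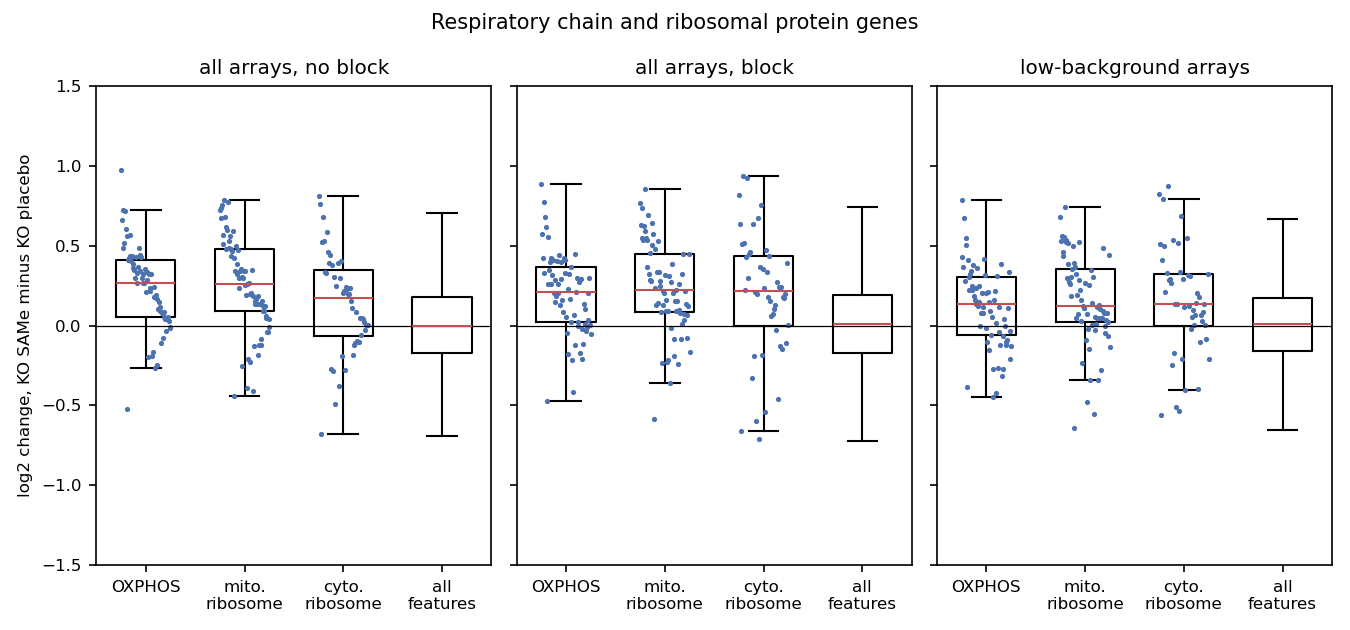
Log2 change (KO SAMe minus KO placebo) of 65 oxidative phosphorylation genes, 69 mitochondrial and 48 cytosolic ribosomal protein genes (points) and of all 10831 features (box without points) in the fits without the block, with the block and within the low-background arrays. Boxes give the median and quartiles and whiskers reach 1.5 times the box height or the outermost value inside it; the medians of the first 3 boxes lie above that of all features in each panel, while with arrays scaled by their medians both ribosomal medians turned negative (-0.06).

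Hepatocyte transcription factors set which liver genes are read. Of 25 measured factors 5 fell and 1 rose without the block, and 4 fell with it, Cebpb, Onecut2, Foxo1 and Rxra (-0.58). The 1 rise became 1 to 2 with 1 array at a time left out, moving without KO SAMe 1, KO SAMe 5 or KO placebo 6. Beside Cebpb and Onecut2, Foxo1, which turns on gluconeogenesis in fasting, read 5.4, 5.3, 5.4, 5.2 and 5.37 in KO SAMe and 5.93, 5.58, 6.53, 6.2, 6.25 and 6.31 in KO placebo livers. It fell by 0.8 (SE 0.14, adjusted p = 7.61e-04), and its change was -1.0 with the block and -0.95 within the low-background arrays (adjusted p = 0.0144), with no overlap. Hnf4a, a central factor of hepatocyte identity, fell by 0.61 (SE 0.14, adjusted p = 0.00504) and had adjusted p = 0.083 with the block. Nr1h4, the bile acid receptor, rose by 0.51 (SE 0.12, adjusted p = 0.00465) and had adjusted p = 0.0539 with the block. Of 29 measured genes of gluconeogenesis and glycolysis 4 rose and 2 fell without the block, and 1 rose and 1 fell with it, with a median of -0.04 without it. G6pc, the last enzyme of glucose release, fell by 0.94 (SE 0.21, adjusted p = 0.00472) and changed by -0.9 with the block, and Pcx, the first enzyme of gluconeogenesis from pyruvate, rose by 0.64 (SE 0.12, adjusted p = 0.00162) and changed by 0.61.

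Junction genes moved in both directions. Of 16 measured genes of tight and gap junctions 4 fell and 2 rose without the block, and 4 and 2 with it, where Gjb1 (0.82) stood in for Ocln (0.59) among the rises. Cldn2, the pore-forming claudin, fell by 1.08 (SE 0.21, adjusted p = 0.00136), and the gap junction genes Gjb2 (-0.91) and Gja1 (-0.86) fell, while Cldn5 rose. Cldn2 and Gjb2 did not overlap between the groups. Of 12 measured sinusoidal endothelial markers Cldn5 alone rose, and Stab2 (-0.62) and Pecam1 (-0.41) were called lower without the block. With the block Cldn5 rose and 2 other markers fell, Clec4g (-0.7) and Dnase1l3 (-1.07), and the median of the 12 was -0.22 without and -0.34 with the block. The summed intensity of these 12 markers was 1140 to 1950 in KO SAMe and 1450 to 2430 in KO placebo livers.

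Methionine cycle genes make, use and remake SAMe. Of 18 measured genes for the methionine cycle and for methyl transfer from SAMe 2 rose and 0 fell without the block, beside 10.8% and 7.69% of all features, and 0 were called with it. The rises numbered 1 or 2 with 1 array at a time left out, with 1 without KO SAMe 2, KO SAMe 3, KO SAMe 4, KO placebo 1 or KO placebo 2. Pemt, which methylates phosphatidylethanolamine to phosphatidylcholine with SAMe, rose by 0.45 (SE 0.11, adjusted p = 0.00722) with no overlap, but had adjusted p = 0.104 with the block. Bhmt, which remakes methionine from homocysteine with betaine, rose by 0.8 (SE 0.24, adjusted p = 0.0269), averaged 9.96 ± 0.18 in KO SAMe and 9.17 ± 0.57 in KO placebo livers (SD, n = 5 and 6), and had adjusted p = 0.257 with the block. Gnmt, the main hepatic sink of SAMe, differed by -0.05 (adjusted p = 0.908), and Mat2b, the regulatory partner of the non-hepatic methionine adenosyltransferase, by 0.24 (adjusted p = 0.36). Ahcy, which clears the product of SAMe-dependent methylation, differed by -0.33 (adjusted p = 0.203) by its brightest probe, while a second probe rose by 0.54 (adjusted p = 0.0462 over all probes), so its direction is not settled. Of 10 measured genes of phosphatidylcholine synthesis 3 rose and 1 fell without the block, and 1 rose and 1 fell with it, and 0 fell without KO placebo 3. Chkb, a choline kinase, rose by 0.87 (SE 0.16, adjusted p = 0.00128) and by 0.63 with the block, Ptdss2 (0.64) rose and Chpt1 (-0.68) fell only without it. Of 32 measured enzymes and readers of DNA and histone methylation 4 rose and 4 fell without the block, and 2 and 4 with it. Kdm1a, a histone demethylase, rose by 0.52 (SE 0.1, adjusted p = 0.00201) and Prmt1, an arginine methyltransferase that uses SAMe, rose by 0.47 (SE 0.12, adjusted p = 0.0102). Mbd1, which binds methylated DNA, fell by 1.12 (SE 0.2, adjusted p = 0.00103) by its brightest probe, while its 3 other probes changed by -0.27, 0.02 and -0.23 and were not called. The histone methyltransferase gene Setd1b fell by 1.01 (SE 0.26, adjusted p = 0.0107), and both were also called with the block.

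Metabolic lists held calls in both directions, beside 10.8% of all features called higher and 7.69% lower without the block (4.81% and 4.45% with it). Of 42 measured genes of xenobiotic metabolism 6 fell and 2 rose without the block, and 6 fell and 1 rose with it, of which Ephx1, Ugt3a2 and Cyp2f2 were called with the block alone. The 2 rises numbered 1 to 3 with 1 array at a time left out, moving over 1.5 times without any of 8 arrays, all KO arrays but KO SAMe 2, KO placebo 4 and KO placebo 6. Cyp2d26 fell by 1.12 (SE 0.18, adjusted p = 4.44e-04) and Fmo5, a flavin monooxygenase, fell by 1.11 (SE 0.2, adjusted p = 9.97e-04), each without overlap and each also called with the block. Cyp2b9 averaged 9.68 ± 0.66 in KO SAMe and 10.58 ± 0.34 in KO placebo livers (SD, n = 5 and 6), fell by 0.9 (SE 0.21, adjusted p = 0.00543) and was detected on 1 of 8 WT arrays. Cyp2c55 rose by 0.78 (SE 0.18, adjusted p = 0.00481) and was detected on 4 of 6 KO placebo arrays. Of 40 measured genes of the urea cycle and amino acid catabolism 7 rose and 1 fell without the block, and 2 rose and 1 fell with it. The 1 fall became 1 to 2 with 1 array at a time left out, moving without KO SAMe 1, KO SAMe 2, KO placebo 1 or KO placebo 6. Gpt2, a mitochondrial alanine transaminase, rose by 0.7 (SE 0.15, adjusted p = 0.00365), and Pcca, a subunit of propionyl-CoA carboxylase in the breakdown of methionine and branched amino acids, rose by 0.68 (SE 0.15, adjusted p = 0.00363), though 2 other Pcca probes changed by -0.28 and 0.03. Of 19 measured genes of cholesterol synthesis 4 rose without the block, Idi1 (0.62), Mvd (0.72), Srebf2 (0.41) and Mvk (0.41), and 0 with it. Idi1 was detected on 3 of 6 KO placebo arrays. With 1 array at a time left out, the rises of the amino acid list numbered 4 to 9, moving over 1.5 times without KO SAMe 4, KO placebo 1 or KO placebo 2, and those of cholesterol synthesis 2 to 5, moving likewise without KO SAMe 3, KO placebo 1 or KO placebo 2.

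Of 29 measured acute phase reactants 6 fell without the block and 2 with it. Crp fell by 0.49 (SE 0.11, adjusted p = 0.00363) without overlap, and Serpina3n fell by 0.77 (SE 0.22, adjusted p = 0.0175), both also called with the block. Lcn2, an iron-binding protein of inflammation, fell by 1.4 (SE 0.32, adjusted p = 0.00484) and Saa4 fell by 1.58 (SE 0.42, adjusted p = 0.0122), with adjusted p of 0.0682 and 0.117 with the block. The change of Saa4 was -0.98 without KO SAMe 2, the dimmest liver at 4.82. Of 13 measured clock genes 5 fell without the block, and Rora (-1.18) alone was also called with it. Per1 (-1.02), Per2 (-0.87), Bhlhe40 (-1.57) and Dbp (-0.75) were not, and the labels used here do not name the hour at which each liver was taken. In WT livers Bhlhe40 read 8.3, 8.25 and 8.32 in columns 3, 6 and 7 of the raw table, and 6.58 to 6.81 in columns 11 to 18. For Per1, Per2 and Dbp the WT values of those columns overlapped. The part of column order in these falls was not tested.

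**Figure D5:**
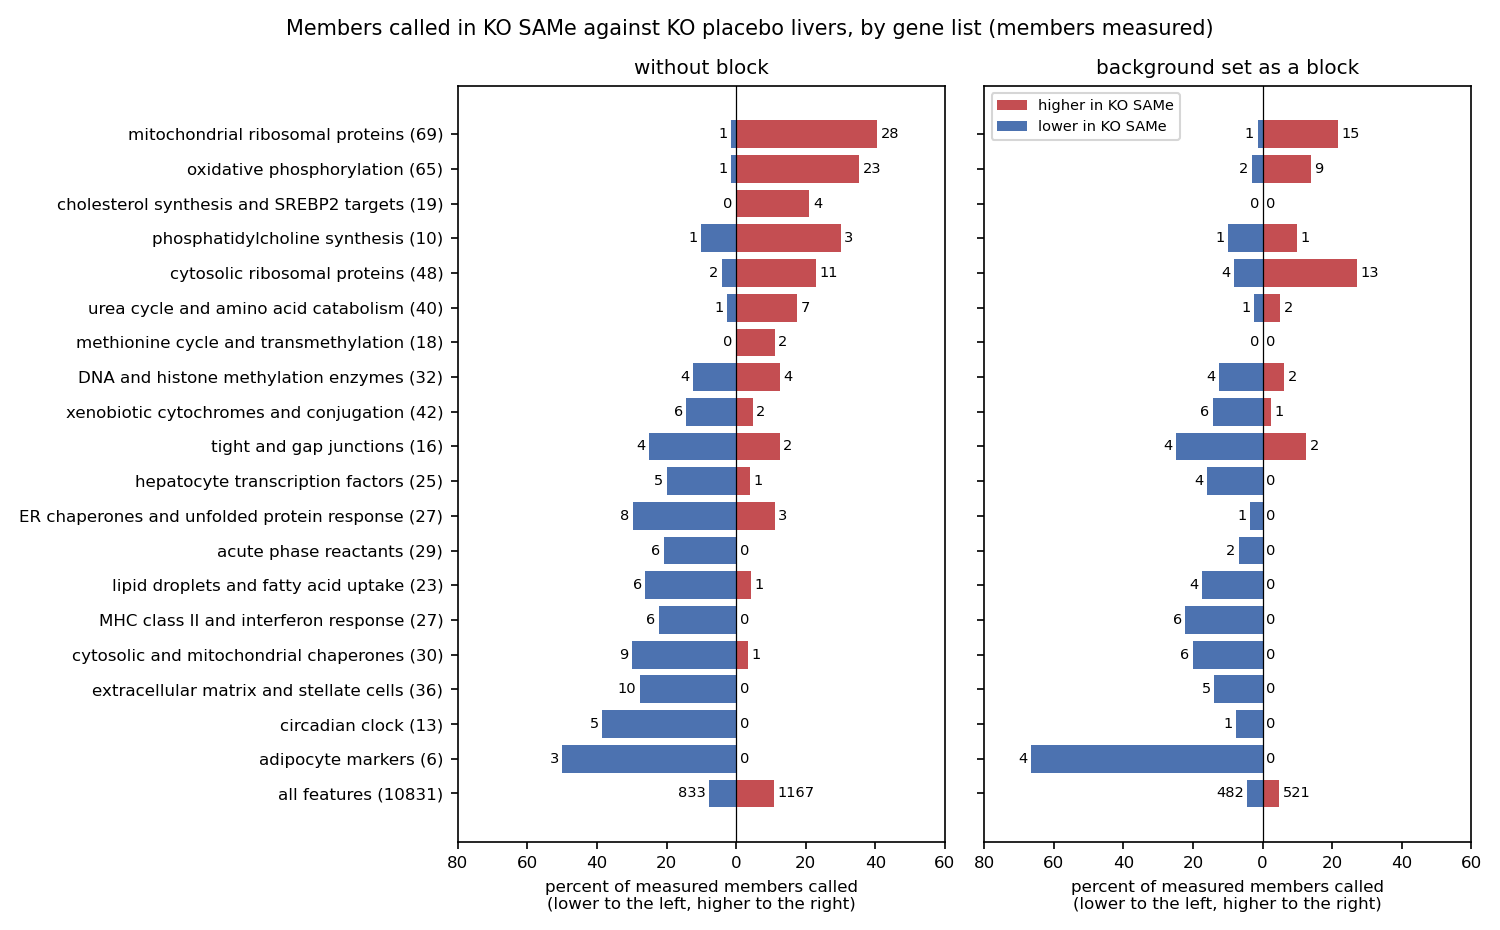
Percent of measured members called higher (right, red) and lower (left, blue) in KO SAMe against KO placebo livers for 19 gene lists and all features, without the background block (left panel) and with it (right panel), with the number called beside each bar and the number measured in parentheses. Mitochondrial ribosomal proteins have 28 rises without and 15 with the block, and the ER list keeps 1 of its 8 falls; under scaling by array medians the median change of both ribosomal lists turned negative.

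Cela2a, the largest rise, is a marker of pancreatic acinar cells. Of the 4 measured of 19 such markers, Cela2a and Cela1 (0.86, adjusted p = 0.00758) rose and Cpb1 (-0.12) and Amy2a5 (-0.02) were not called. The summed intensity of the 4 was 1660 to 2720 in KO SAMe, 1400 to 2450 in KO placebo and 2130 to 3020 in WT livers. Cela1 lost its call with the block (adjusted p = 0.163), and the part of pancreatic tissue was not tested. Of the 19 markers 9 had a named probe on the array, and those beyond the 4 did not pass the detection filter. The other elastase and trypsin genes of the list were not among the 4.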

How the data were processed

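RNA of 19 mouse livers was read on Illumina BeadChips, 1 array per animal ID. The authors deposited a raw table of mean bead intensity for 45281 probes, with a detection p-value for each probe and array, and a table of log2 values. The labels used here do not name the scanner software. Recomputing the deposited log2 values showed them to be the log2 of the raw intensity, quantile normalized, for 17592 probes, those that 1 array or more detected at p under 0.01 (largest difference 5.2e-14). They served as an alternative.

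Groups came from the genotype and treatment labels. The raw intensities were background corrected with limma 3.58.1 in R 4.3.3 (nec with detection p-values, offset 16), quantile normalized and taken to log2. Probes that 5 or more arrays detected at p under 0.05 stayed in (14295), and the brightest probe stood for each gene. Symbols were taken from GEO's platform table, where 14737 probes had 1 symbol, 10 had several and 2845 had none, and 14715 matched RefSeq (GRCm38.p6). Promoter sequences are from RefSeq. Of 113 named genes 97 had a promoter.

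One limma model (lmFit and eBayes) over all 19 arrays gave the contrast, with Benjamini-Hochberg adjustment over 10831 features. The same model was run with the background set (median raw signal over or under 90) as a term, and within the low-background arrays. The labels do not say that arrays of a group came from separate litters or batches. The number of arrays limits the precision. The script was tested on simulated data.

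The genes named were Mat1a, the 15 largest rises and 15 largest falls called with and without the block, and up to 5 members of each described list by the size of the moderated t. Other genes were named after their values were seen, to fill out a count. The members and lists were chosen with earlier results of these data known. Alternatives covered the background correction, scaling, detection filter, probe summary, array weights, ID letter, the arrays in the fit and each KO array left out.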

Additional observations from a re-analysis of the deposited data

Results flagged for a closer look

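Among 226 gene groups of 113 genes, 6 held 1 liver far from the others of its group, and chance flags about 1 in 20 groups. Lcn2 read 10.05 in KO placebo 2, against 8.09 to 8.77 in the other KO placebo livers, and without that liver the change was -1.13 (limma adjusted p = 0.0105). Saa4 read 4.82 in KO SAMe 2, against 7.21 to 8.15 in the other KO SAMe livers, and the change without it was -0.98 (limma adjusted p = 0.0138). Mbd1 read 7.47 in KO placebo 5, against 8.38 to 8.72 in the rest of its group, with a change of -1.30 without it (limma adjusted p = 1.88e-04). In KO SAMe 4 Herpud1 read 11.24, against 11.77 to 11.85 in the others, and Sel1l read 7.09, against 6.79 to 6.84. Without KO SAMe 4 Herpud1 changed by -0.42 (limma adjusted p = 0.0145) and Sel1l by -0.67 (limma adjusted p = 0.00821). Cox7b read 4.97 in KO SAMe 2, against 5.51 to 5.71 in the others, and its change without it was 1.11 (limma adjusted p = 1.31e-04). All 6 genes were called in the fit without the block, and all 6 kept the call without the liver named.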

How the results depend on the processing

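The number of calls depended on how the array sets were treated. Against 2000 calls (1167 higher, 833 lower, 107 at 2-fold or more), the background block gave 1003 (521 and 482), the low-background arrays 76 (35 and 41, 15 at 2-fold or more), the KO arrays alone with the block 37 (21 and 16, 6 at 2-fold or more), and the ID letter as a term 1 (1 and 0, 1 at 2-fold or more). Scaling moved the split: array medians gave 3355 calls (202 and 3153, 368 at 2-fold or more, 6.02% higher), and the medians of kept probes, added after seeing the data, gave 3492 (2608 higher, 74.7% of calls), against 58.4% higher after quantile normalization. The median of all features was -0.21 and 0.16 in those fits. Without a detection filter 1268 were called (461 lower). Calls at 2-fold or more numbered 24 with the authors' log2 values, 35 with normexp and an offset of 50, 24 without background correction, and 197 without the 2 low-background KO placebo arrays, a fit added after seeing the data. Leaving out 1 KO array gave 1373 to 2112 calls, and 552 to 877 lower ones, with 552 without KO placebo 1 or KO placebo 2. Mat1a turned to -0.07 in the low-background arrays, -0.07 in the KO arrays with the block and -0.11 under scaling by array medians. Per2 turned to 0.19 with the ID letter and Ahcy to 0.11 with probes averaged. The cause of these shifts was not tested. Over the 113 named genes and all alternatives 2504 values kept their direction and side of the threshold, 408 lost the call, 21 gained it and 5 turned. The counts of calls given above are not among these values. Of the 26 alternatives 11 leave out only 1 KO array and so reuse nearly all of the data. The 15 largest rises and 15 largest falls were chosen with the block fit, which is also an alternative. The tally is therefore no independent check of the calls. Many named genes lost the call within the low-background arrays and in the KO arrays with the block, and every called one lost it with the ID letter as a term. Sizes moved too. Over the alternatives the change ranged from -1.85 to -0.08 for Hsph1, from -1.99 to -0.26 for Creld2 and from 0.08 to 0.59 for Kdm1a. It stayed between -1.96 and -1.38 for Cebpb and between -1.68 and -1.07 for Igfbp7. No paired analysis was possible because the labels give the groups no shared replicate numbers. The ID letter, which KO SAMe 3 shares with KO placebo 5 and KO placebo 6, was fitted as a term. That fit made the 1 call given above and kept 0 of the 2000 calls, 78 of which had the opposite sign.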

Other observations

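Of 18 measured cell proliferation genes 5 rose and 0 fell without the block, and 2 rose with it. Beside this and the next lists, 10.8% of all features rose and 7.69% fell without the block, and 4.81% and 4.45% with it. Tk1, the thymidine kinase of dividing cells, averaged 6.66 ± 0.17 in KO SAMe and 5.81 ± 0.31 in KO placebo livers (SD, n = 5 and 6) and 7.83 in WT livers, a change of 0.84 (SE 0.13, adjusted p = 4.36e-04) by limma, with 0.85 under the block. Of 35 measured proteasome genes 6 rose and 1 fell without the block, and 2 rose and 1 fell with it. Of 22 measured genes of bile acid synthesis and transport 4 rose and 3 fell without the block, and 0 rose and 2 fell with it. Cyp7a1, the rate-limiting enzyme of bile acid synthesis, averaged 10.71 ± 0.4 in KO SAMe and 9.68 ± 0.45 in KO placebo livers (SD, n = 5 and 6), and its change was 1.03 without the block (limma adjusted p = 0.0115) and 0.9 with it (limma adjusted p = 0.101).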
